A study of Arabidopsis thaliana with 8 samples.

Results

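The genes described here are 8 Arabidopsis thaliana genes for enzymes that clip xylose, arabinose or galactose from cell wall sugar chains: the beta-xylosidase genes BXL1 to BXL4, the alpha-xylosidase gene XYL1 and the beta-galactosidase genes BGAL1, BGAL2 and BGAL4. They were chosen by their locus codes, each matched by 1 probe set that the deposited annotation gives to that gene alone, and they are 8 of the 21019 genes measured that way. The choice was made with the values of all 4 groups already known. All levels and differences of the 8 genes, and all calls and counts of calls among them, are therefore descriptions that test nothing. No p-value is given for them. Transcripts were measured in roots on 8 single-colour Affymetrix arrays, 1 per RNA sample, with 2 biological replicates in each of 4 groups. Wild-type plants and uri mutants grew for 14 days on half-strength Gamborg's B5 medium and then spent 3 days on a basal agar medium with either 50 µM Fe(III)-EDTA (+Fe) or 300 µM of the iron chelator ferrozine (−Fe). URI (AT3G19860, bHLH121) encodes a basic helix-loop-helix transcription factor of the iron deficiency response. The labels name neither the uri allele nor the accession, and nothing says how many plants went into a sample, so the spread between replicates is all that the errors measure.

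Growing plant walls hold xyloglucan and pectin chains whose side sugars are trimmed outside the cell by glycosidases. Beta-xylosidases of glycoside hydrolase family 3 (GH3) remove xylose, and BXL1 also removes arabinose from pectic arabinan. XYL1 is the alpha-xylosidase that takes xylose off xyloglucan, and beta-galactosidases of family GH35 release galactose from pectic galactan and other wall chains. The freed sugars can be taken up and returned to metabolism by sugar kinases and UDP-sugar enzymes. Transcripts of several wall glycosidases, BXL1 among them, are known to rise in sugar-starved or darkened Arabidopsis.

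Array medians lay between 119.55 and 128.29 linear units, and Pearson's r between the log2 values of replicates, over all probe sets, ran from 0.9938 in uri +Fe to 0.9978 in wild type −Fe. The URI probe set was lower on the uri +Fe arrays than on the wild-type +Fe arrays (log2 −1.02 ± 0.118, SE, limma adjusted p = 0.000752), but on the arrays labelled uri −Fe it gave −0.05 ± 0.118 against wild type −Fe (adjusted p = 0.804), so the mutated gene's transcript does not check the label of those 2 arrays. Every direction given below for the arrays labelled uri −Fe rests on that label. Serial numbers in the array titles fall into 2 runs, of which 1 holds all −Fe arrays and the other all +Fe arrays. The effects of iron supply and of run therefore cannot be told apart, whereas each comparison of genotypes lies within 1 run. All 8 root marker genes lay above the lower quartile of every array, and so did the 7 measured markers of shoot tissue. The root markers had a summed linear level of 8553 to 8879 in wild type +Fe and 9402 to 9609 in wild type −Fe. In uri +Fe it was 7373 to 7802, and on the arrays labelled uri −Fe 7975 to 8103. Single root markers moved both ways. In uri under −Fe, SKOR and PHO1 changed by log2 1.33 and 0.39, and WER and COBL9 by −0.79 and −0.65. CASP1 in uri differed from wild type by −0.50 with iron and −0.66 without. The shoot markers had a summed linear level of 2582 to 2832 in wild type +Fe and 1627 to 1657 in wild type −Fe. In uri +Fe it was 2440 to 2511, and on the arrays labelled uri −Fe 4332 to 4821. In bulk roots, a change in the share of cells of a type and a change in the RNA per cell cannot be told apart.

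Of the 8 genes, 5 behaved alike: BXL1, BXL2, BGAL1, BGAL2 and BGAL4 were lower in uri than in wild type when iron was present, fell in wild-type roots without iron, and rose in uri roots without iron. BXL3, BXL4 and XYL1 did not share this pattern. XYL1 and BXL3 fell in uri without iron, and BXL4 was lower by a similar amount in both genotypes without iron, a difference that passed in neither.

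**Figure D1:**
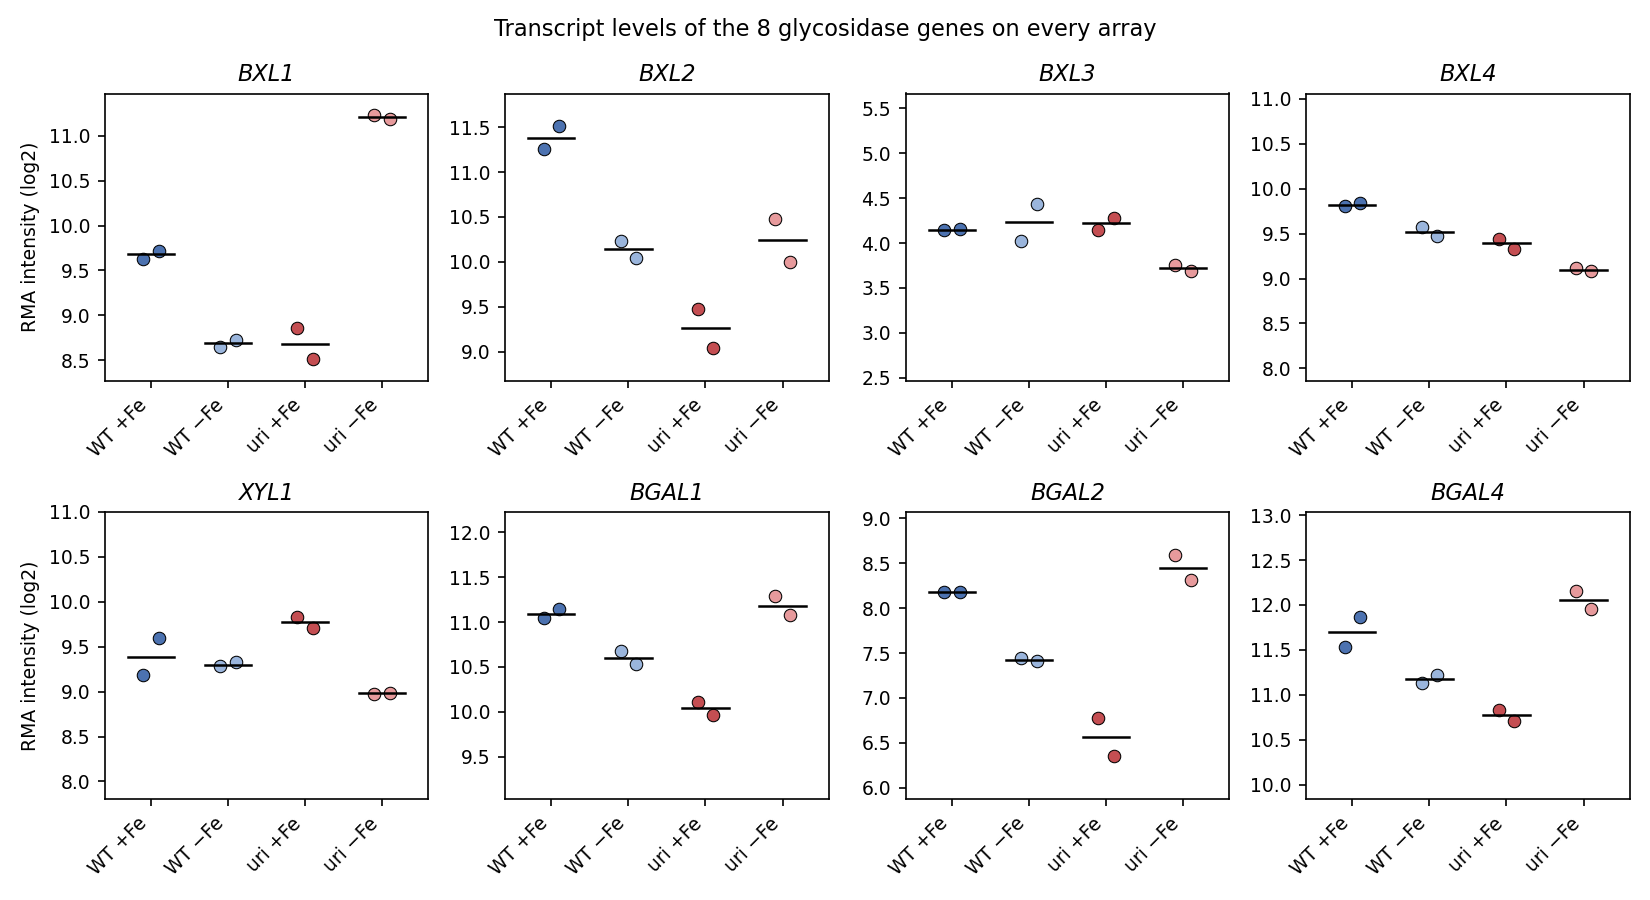
RMA intensity (log2) of each of the 8 genes on every array, by group; points are single arrays, horizontal bars are group means, and every panel spans the same log2 range. BXL1, BGAL1, BGAL2 and BGAL4 have their highest mean on the arrays labelled uri −Fe, BXL2 has its highest in wild type +Fe, and XYL1, BXL3 and BXL4 have their lowest on the arrays labelled uri −Fe.

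BXL1 (AT5G49360) had the widest range of the 8 genes. Its log2 intensity was 9.63 and 9.72 in wild type +Fe, 8.65 and 8.72 in wild type −Fe and 8.86 and 8.51 in uri +Fe, but 11.23 and 11.19 with the label uri −Fe. The last pair stood above all other arrays, while wild type −Fe and uri +Fe overlapped as the lowest groups. The fall in wild type was 1.99-fold (log2 −0.99 ± 0.132, SE from the fit over all 8 arrays), and the rise in uri was 5.76-fold (2.53 ± 0.132). With iron the uri level was below wild type by the same 1.99-fold (−0.99 ± 0.132), and without iron it was 5.75-fold above (2.52 ± 0.132).

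BXL2 (AT1G02640), another beta-xylosidase gene, showed its largest difference under +Fe rather than −Fe. Its log2 intensity was 11.26 and 11.51 in wild type +Fe, 10.23 and 10.04 in wild type −Fe, 9.48 and 9.04 in uri +Fe and 10.48 and 10.00 for the label uri −Fe. Wild type +Fe was thus the highest group and uri +Fe the lowest, and both −Fe groups overlapped between them. The uri level was 4.36-fold below wild type with iron (log2 −2.12 ± 0.181). Without iron, the level had fallen 2.37-fold in wild type (−1.24 ± 0.181) and risen 1.97-fold in uri (0.98 ± 0.181). The remaining genotype difference under −Fe was 0.10, with a 95% interval from −0.29 to 0.50.

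BGAL2 (AT3G52840) followed BXL1 in the size of its uri response. Its log2 intensity was 8.18 on both wild-type +Fe arrays, 7.44 and 7.41 in wild type −Fe, 6.78 and 6.35 in uri +Fe and 8.59 and 8.31 for the label uri −Fe. No group overlapped with another. The level fell 1.69-fold in wild type (log2 −0.75 ± 0.149), rose 3.70-fold in uri (1.89 ± 0.149), and was lower in uri by 3.06-fold with iron (−1.61 ± 0.149) but higher by 2.04-fold without it (1.03 ± 0.149).

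BGAL4 (AT5G56870) had log2 intensities of 11.53 and 11.87 in wild type +Fe, 11.13 and 11.22 in wild type −Fe, 10.83 and 10.71 in uri +Fe and 12.16 and 11.96 for the label uri −Fe. Its 4 groups stood in the same order as those of BGAL2 and did not overlap. The change was −0.53 ± 0.138 in wild type and 1.29 ± 0.138 in uri on the log2 scale. BGAL1 (AT3G13750) had log2 intensities of 11.04 and 11.14, 10.68 and 10.53, 10.11 and 9.96, and 11.29 and 11.08 in the same group order. Here too uri +Fe was lowest and wild type −Fe next, but wild type +Fe and the arrays labelled uri −Fe overlapped. BGAL1 changed by −0.49 ± 0.125 in wild type and by 1.14 ± 0.125 in uri. The wild-type falls of both genes were the smallest of the 5.

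XYL1 (AT1G68560), which acts on xyloglucan, ran against these 5 genes in uri. Its log2 intensity was 9.18 and 9.60 in wild type +Fe, 9.28 and 9.33 in wild type −Fe, 9.83 and 9.71 in uri +Fe and 8.97 and 8.99 for the label uri −Fe. The wild-type groups overlapped, with a difference of −0.09 and a 95% interval from −0.40 to 0.21, whereas uri +Fe was the highest group and uri −Fe the lowest. The fall in uri was 1.73-fold (−0.79 ± 0.140).

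BXL4 (AT5G64570, XYL4 in RefSeq) had nearly the same iron response in both genotypes. Its log2 intensity was 9.81 and 9.84 in wild type +Fe, 9.57 and 9.47 in wild type −Fe, 9.44 and 9.33 in uri +Fe and 9.12 and 9.08 for the label uri −Fe. The groups stepped down in that order with no overlap. The −Fe difference was −0.30 in wild type (95% interval −0.55 to −0.06) and −0.29 in uri (−0.54 to −0.05), neither of which passed. The uri difference from wild type was −0.43 with iron, which passed in 5 of 17 alternative settings but not here, and −0.42 without iron. The latter was called, but the call held in 13 of the 17 and was lost on omitting any 1 of the 4 −Fe arrays.

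BXL3 (AT5G09730) was dim, with every group mean below the lower quartile of its arrays. Its log2 intensity was 4.14 and 4.16 in wild type +Fe, 4.02 and 4.44 in wild type −Fe, 4.15 and 4.28 in uri +Fe and 3.76 and 3.69 for the label uri −Fe. Only the last pair stood apart from the other 6 arrays. As no detection calls were at hand, the size of its change of −0.49 ± 0.141 in uri is uncertain. That call held in 12 of 16 settings. With 16 units added before taking log2 the change was −0.24 and not called, and the call was also lost on omitting either uri −Fe array or replicate 2 of uri +Fe. Its difference of −0.50 from wild type under −Fe was likewise called in 12 of 16, being lost with 16 units added and on omitting either uri −Fe array or replicate 2 of wild type −Fe.

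**Figure D2:**
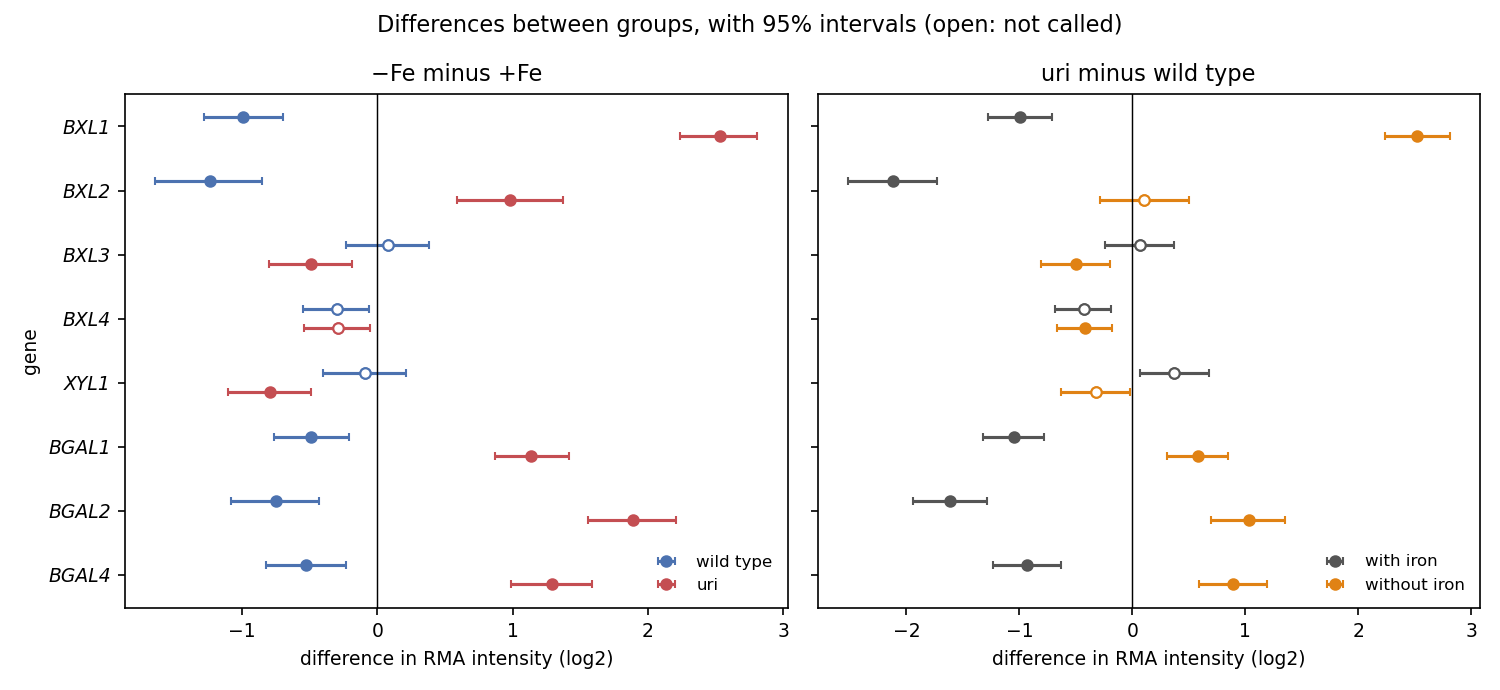
Differences in RMA intensity (log2) for the 8 genes, −Fe minus +Fe in each genotype on the left and uri minus wild type at each iron supply on the right; points are estimates from 1 fit over 8 arrays, bars are 95% intervals, and open points did not pass an adjusted p of 0.05. For BXL1, BXL2, BGAL1, BGAL2 and BGAL4 the wild-type and uri iron responses lie on opposite sides of 0.

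In counts from limma at an adjusted p under 0.05, 5 of the 8 genes fell and 0 rose under −Fe in wild type, where 2.14% of all 22746 probe sets were called lower and 3.51% higher. At an unadjusted p under 0.05, 6 were lower and 0 higher. The median over the 8 genes was −0.51, against −0.03 over all probe sets. BXL1 and BXL2 were called under all 17 alternative settings, but BGAL2 was called in 13, and BGAL1 and BGAL4 in 11 each. The count was 2 when wild-type +Fe replicate 2 or 1 of the wild-type −Fe arrays was omitted. It was 3 when a uri −Fe array or replicate 1 of wild type +Fe was omitted. In uri, 5 of the 8 rose and 2 fell under −Fe, with 15.1% of all probe sets called higher and 18.0% lower, and the 8 genes had a median of 1.06 against −0.01. The 5 rises were called under all 17 settings. Since the genes were chosen with both responses known, nothing is read from these counts.

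Between genotypes under +Fe, 5 of the 8 were lower in uri and 0 higher, where 1.78% of all probe sets were called lower and 1.34% higher. At an unadjusted p under 0.05, 6 were lower and 1 higher. The median of the 8 was −0.96 against 0.01, and the same 5 genes were called under all 17 settings. Under −Fe, 4 of the 8 were higher on the arrays labelled uri (BXL1, BGAL1, BGAL2 and BGAL4) and 2 lower (BXL3 and BXL4), beside 12.2% and 14.4% of all probe sets. That count of 6 fell to 3 on omitting replicate 2 of wild type −Fe or replicate 1 of uri −Fe, and to 4 without uri −Fe replicate 2. BXL1, BGAL2 and BGAL4 stayed called in each of the 17 settings, and BGAL1 in 15. Across all probe sets, 173 were called lower in wild type and higher in uri under −Fe, and 76 of these were also lower in uri with iron. The 5 genes are among the 76.

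The difference between the iron responses of the genotypes was largest for BXL1, at 3.52 ± 0.187 on the log2 scale, or 11.46-fold. It was 2.64 ± 0.211 for BGAL2, 2.23 ± 0.256 for BXL2, 1.82 ± 0.195 for BGAL4 and 1.63 ± 0.177 for BGAL1. XYL1 gave −0.70 ± 0.198, and BXL4 gave 0.01 with a 95% interval from −0.34 to 0.36. In all, 5 of the 8 were called higher and 1 lower in this interaction, beside 9.60% and 10.8% of all probe sets. The 5 higher genes were called under all 16 settings run, whereas XYL1 was called in 10 and was lost on omitting any 1 −Fe array or replicate 1 of either +Fe group.

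The other genes of the same enzyme groups were described from a list of the remaining BXL-like and BGAL genes, of which 16 of 17 had a probe set of their own. This list and those below were drawn up with earlier results of these data known. Their counts and adjusted p-values are therefore descriptions too. In wild type 0 of the 16 were called by limma, where 2.14% of all probe sets were called lower and 3.51% higher. Also, 0 reached even an unadjusted p under 0.05. Between genotypes under +Fe, 0 of the 16 were called, beside 1.78% of all probe sets called lower and 1.34% higher. There 1 gene, a BGAL gene, reached that unadjusted level. In uri without iron, 0 of the 13 measured BGAL genes rose and 4 fell (median −0.19), beside 15.1% of all probe sets called higher and 18.0% called lower. At an unadjusted p under 0.05 the counts were 0 and 5. BGAL3 (AT4G36360), a wall beta-galactosidase gene, had log2 intensities of 9.69 and 9.88 in wild type +Fe, 9.78 and 9.88 in wild type −Fe, 10.00 and 9.98 in uri +Fe and 8.46 and 8.36 for the label uri −Fe. Both arrays labelled uri −Fe stood below all others. In uri BGAL3 fell by 1.58 ± 0.118 on the log2 scale (adjusted p = 1.37e-06), opposite to BGAL1, BGAL2 and BGAL4. Its iron responses differed between genotypes by −1.62 ± 0.167 (adjusted p = 3.2e-05). BGAL8 fell by 0.66 in uri (adjusted p = 0.00156), BGAL10, the main xyloglucan beta-galactosidase gene, by 0.52, and BGAL5 by 0.51, a call lost without uri −Fe replicate 2. Of the 3 BXL-like GH3 genes, AT1G78060 fell by 0.55 in uri, also lost without uri −Fe replicate 2, and the other two did not pass. Between genotypes under −Fe, 4 of the 13 BGAL genes were lower and 1, BGAL7, was higher on the arrays labelled uri, beside 14.4% and 12.2% of all probe sets. BGAL7 was dim, with log2 intensities of 4.20 and 4.37 in wild type −Fe and 4.74 and 4.83 for the label uri −Fe. The lower quartiles of these arrays ran from 4.65 to 4.74. The call of BGAL7 was lost with 16 units added and on omitting any 1 of the 4 arrays compared.

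Other glycosidase genes that release wall sugars also moved in both directions. Of 10 measured, 5 rose and 2 fell in uri under −Fe (median 0.23), beside the same 15.1% and 18.0% of all probe sets, with 3 higher on omitting replicate 1 of uri +Fe or any 1 uri −Fe array. ASD1 (AT3G10740), an alpha-arabinofuranosidase gene, rose by 1.06 ± 0.119 (adjusted p = 3.09e-05) and the alpha-galactosidase gene AGAL1 by 0.96 ± 0.122 (adjusted p = 8.21e-05). ASD1 had the signs of the 5 genes above. It gave −0.27 in wild type, which did not pass (adjusted p = 0.251). Against wild type, uri gave −0.50 ± 0.119 with iron (adjusted p = 0.0438), beside 1.78% of all probe sets called lower, and 0.84 ± 0.119 without iron (adjusted p = 0.000212). The call with iron held in 8 of 17 settings. The genes that fell were AXY8, the xyloglucan alpha-fucosidase gene, by 1.29 ± 0.128 (adjusted p = 1.24e-05), and AT5G20950, annotated as a GH3 hydrolase, by 1.10 ± 0.129 (adjusted p = 4.63e-05). For these 4 genes the responses of the genotypes differed in the same direction as the uri change (limma adjusted p from 0.000155 to 0.00721). In wild type 1 of the 10, FXG1, a fucosidase gene, was called lower, beside 2.14% of all probe sets. That call was lost on omitting any 1 wild-type array.

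Like XYL1, most genes of xyloglucan synthesis fell in uri without iron. Of 7, 6 fell in uri under −Fe and 0 rose (also 0 at an unadjusted p under 0.05), with a median of −0.64, where 18.0% of all probe sets were called lower and 15.1% higher. In wild type 0 were called by limma, 1 was higher at an unadjusted p under 0.05 or by limma-trend, and the median was 0.11. The galactosyltransferase genes XLT2 and MUR3 fell by 1.08 ± 0.197 (adjusted p = 0.00109) and by 1.06 ± 0.124 (adjusted p = 4.48e-05), and the xylosyltransferase genes XXT2 and XXT5 by 0.68 and 0.64. The responses of the genotypes differed for 6 of the 7, all lower in uri, beside 10.8% of all probe sets. That count was 3 on omitting a wild-type −Fe array, replicate 1 of wild type +Fe or replicate 2 of uri −Fe. With iron, 1 of the 7, MUR3, was called higher in uri (0.55 ± 0.124, adjusted p = 0.0349), beside 1.34% of all probe sets. The MUR3 call held in 10 of 17 alternative settings, with values from 0.43 to 0.66. It was lost from only the 4 arrays compared. Omitting any 1 −Fe array, replicate 1 of wild type +Fe or replicate 2 of uri +Fe also lost it. At an unadjusted p under 0.05, 4 of the 7 were higher and 0 lower in uri with iron.

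**Figure D3:**
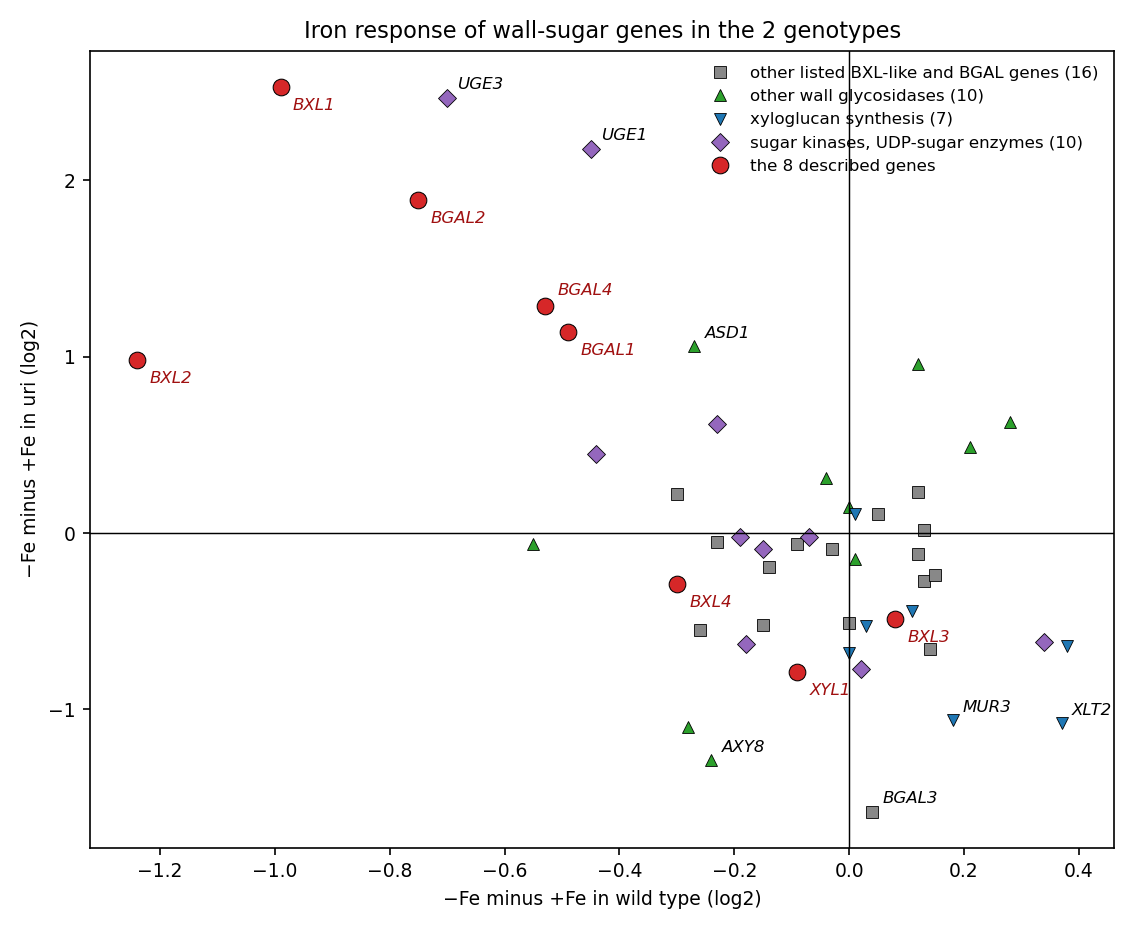
Iron response (−Fe minus +Fe, log2) in wild type on the horizontal axis and in uri on the vertical axis, which share no array; each symbol is 1 gene and the legend gives the number per list. BXL1, BXL2, BGAL1, BGAL2 and BGAL4 lie in the upper left with UGE1 and UGE3, while XYL1, AXY8, BGAL3, MUR3 and XLT2 lie below 0 in uri.

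Among enzymes that return freed sugars to metabolism, the UDP-glucose 4-epimerase genes were divided. UGE1 and UGE3, which are linked to carbohydrate breakdown, rose in uri without iron and were lower in uri with iron, as the 5 glycosidase genes were. UGE3 (AT1G63180) had log2 intensities of 7.67 and 7.89 in wild type +Fe, 7.03 and 7.14 in wild type −Fe, 6.57 and 5.78 in uri +Fe and 8.66 and 8.63 for the label uri −Fe. It rose by 2.47 ± 0.199 in uri (adjusted p = 2.31e-06) and was lower in uri with iron by −1.61 ± 0.199 (adjusted p = 0.00116). Its wild-type difference of −0.70 did not pass (adjusted p = 0.0647). UGE1 (AT1G12780) rose by 2.18 ± 0.122 in uri (adjusted p = 1.37e-07), was lower in uri with iron by −0.80 ± 0.122 (adjusted p = 0.00436), and gave −0.45 in wild type (adjusted p = 0.0505). In contrast, UGE4 and UGE2, linked to wall synthesis, fell in uri by 0.77 and 0.63, and the call of UGE2 was lost without uri −Fe replicate 1. Of the 10 measured genes of this list 4 rose and 3 fell in uri under −Fe, beside 15.1% and 18.0% of all probe sets, with 1 lower without uri −Fe replicate 1, and 0 were called in wild type. At an unadjusted p under 0.05, 3 were lower and 1 higher in wild type, and limma-trend called 3 lower.

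Carbon-starvation genes were measured on the same arrays. All 8 rose in uri under −Fe (median 2.01) and 4 fell in wild type (median −0.39), beside 15.1% of all probe sets called higher in uri and 2.14% called lower in wild type. DIN3 (AT3G06850), which encodes a subunit of branched-chain keto acid dehydrogenase, had log2 intensities of 10.65 and 10.76 in wild type +Fe, 9.59 and 9.63 in wild type −Fe, 9.34 and 9.48 in uri +Fe, and uri −Fe arrays read 12.16 and 12.02. Its groups stood in the order of those of BXL1, but not all genes of the list did so. With iron, 3 of the 8 carbon-starvation genes were called lower in uri and 1, DIN2, higher, beside 1.78% and 1.34% of all probe sets. DIN2 gave 0.57 ± 0.128 (adjusted p = 0.0339), a call that held in 10 of 17 settings, with values from 0.44 to 0.69. It was lost with the replicate number as a block or from only the 4 arrays compared. Omitting either wild-type −Fe array, replicate 1 of wild type +Fe or either uri +Fe array also lost it. The DIN2 difference of 0.25 in wild type under −Fe did not pass. BXL1 and the carbon-starvation list stood highest on the arrays labelled uri −Fe, where the shoot markers were also highest. Of the 7 shoot markers 5 rose in uri and 4 fell in wild type under −Fe. Between genotypes under −Fe, 7 of the 7 were called higher on the arrays labelled uri (median 1.26), beside 12.2% of all probe sets. In the interaction 6 of the 7 were called higher (median 1.41), beside 9.60%. The part of the shoot markers in the results was not tested. With iron, 1 of the 7 shoot markers was called lower in uri. That count was 0 on omitting replicate 2 of either +Fe group or from only the 4 arrays compared, and 2 with dim probe sets left out or by limma-trend.

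The summed level of 7 xylem and phloem markers was 3169 to 3865 in wild type +Fe, 4426 to 4460 in wild type −Fe, 2741 to 2937 in uri +Fe and 3316 to 3534 on the arrays labelled uri −Fe. The xylem and phloem genes in it were divided. Between genotypes under −Fe, limma called 4 xylem genes lower in uri, IRX3 by −0.83, IRX1 by −0.71, IRX5 by −0.69 and XCP1 by −0.65 (adjusted p from 0.000136 to 0.00966). The phloem genes APL and SUC2 were called higher by 0.44 and 0.39 (adjusted p = 0.0142 and 0.0344). Over all probe sets, 14.4% were called lower and 12.2% higher in this comparison. Omitting replicate 2 of uri −Fe left 2 lower and 1 higher, and omitting any 1 of the other 3 −Fe arrays left 0 higher. Under −Fe in wild type XCP1 was the 1 marker called, at 0.62 (adjusted p = 0.0454), beside 3.51% of all probe sets called higher. The count was 0 on omitting any 1 −Fe array or replicate 1 of wild type +Fe, with the replicate number as a block, or from only the 4 arrays compared. It was 4 with dim probe sets left out and 3 by limma-trend. At an unadjusted p under 0.05, 4 of the 7 were higher and 1 lower, and the median of the 7 was 0.37. SUC2, which encodes the phloem sucrose carrier, had the signs of the 5 glycosidase genes. It gave −0.31 in wild type, which did not pass (adjusted p = 0.194), rose by 0.69 ± 0.125 in uri (adjusted p = 0.00103), and its iron responses differed between genotypes by 1.00 ± 0.176 (adjusted p = 0.00162). With iron SUC2 and IRX3 were called lower in uri, by −0.61 and −0.49 (adjusted p = 0.0203 and 0.0337), beside 1.78% of all probe sets. That count of 2 was 0 or 1 on omitting any 1 array. The part of these tissues in the results was not tested.

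**Figure D4:**
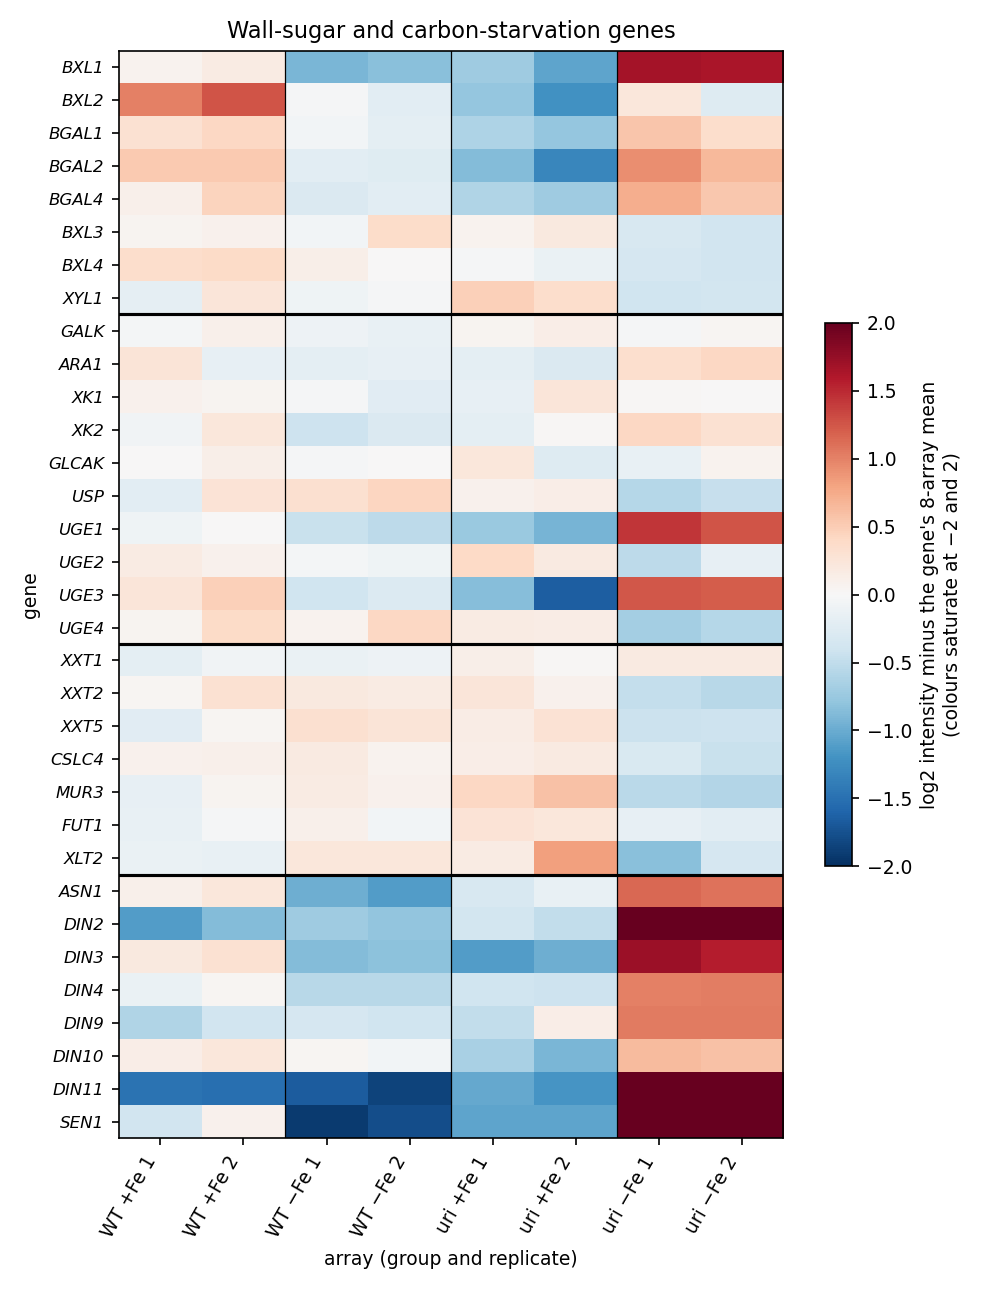
Log2 intensity of each gene on each of the 8 arrays minus that gene's mean over the arrays, with colours capped at −2 and 2. Rows are, from the top, the 8 glycosidase genes, sugar kinase and UDP-sugar genes, xyloglucan synthesis genes and carbon-starvation genes; BXL1, UGE1, UGE3 and DIN3 are high on both arrays labelled uri −Fe and low in wild type −Fe and uri +Fe.

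Profiles most like those of the 3 genes with the widest range were sought over all single-gene probe sets, by the root-mean-square distance between log2 profiles centred on their own mean over the 8 arrays. For BXL1 the nearest genes were IVD (isovaleryl-CoA dehydrogenase, distance 0.152), AT2G46220 (0.161), AT1G76590 (0.165) and DIN3 (0.168). The nearest of the other 7 described genes, BGAL2, was at 0.586. For BGAL2 the nearest were UMAMIT20 (0.191), AT5G19120 and AT1G62770 (each 0.236) and AT2G44130 (0.238), with BGAL4 at 0.289. BXL2 had no neighbour that close. Its nearest were CASP5 (0.389), AT1G67910 (0.408), TLP-3 (0.433) and CLE2 (0.445), and BGAL1 was at 0.486. These distances rest on 8 arrays in 4 groups.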

How the data were processed

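RNA from roots was hybridised to Affymetrix arrays after one-cycle biotin labelling, per the labels' protocols. The deposited intensities were made by the authors with RMA, per the submitters' processing notes. The version is not given in the sources used here. The values are linear, so log2 was taken. The workbook and the series table differ by at most 5e-06 units. Annotation was joined by its own probe-set column, because on 44 lines it differs from that of the adjoining values. The tables hold 22810 probe sets. Without the 64 controls, 22746 were fitted in limma 3.58.1 (R 4.3.3; lmFit and eBayes, a mean per group, all 8 arrays), leaving 4 residual degrees of freedom plus a prior of 8.32. The 5 two-sided contrasts were adjusted by Benjamini-Hochberg over all 22746 probe sets and called at an adjusted p under 0.05. The fit was also run on simulated data with independent noise. Those data held no run difference and no label error, so they do not bear on either. Arrays were grouped by the genotype and iron supply in their titles. Locus codes come from the deposited annotation and symbols from the RefSeq gene table (TAIR10.1); a gene without a symbol there is given by its code. Alternatives were the other deposited table, log2 with 16 units added, centring, quantile normalization, omission of dim probe sets, limma-trend, robust eBayes, the replicate number as a block, each array omitted in turn and only the 4 arrays compared.

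The members and lists were chosen with earlier results of these data known. All 8 members were named, with up to 4 called genes of largest change per list and contrast (3 for carbon starvation) and 4 nearest profiles. For a listed gene with several probe sets, the brightest was used. The number of arrays limits the precision. No sequence was used here.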

Additional observations from a re-analysis of the deposited data

Results flagged for a closer look

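The iron response (−Fe minus +Fe, log2) of 6 of the 8 genes differed between uri and wild type by limma's test of the difference itself, beside 9.60% of all probe sets called higher and 10.8% called lower. The value in uri minus that in wild type was 3.52 for BXL1, 2.64 for BGAL2, 2.23 for BXL2, 1.82 for BGAL4, 1.63 for BGAL1 and −0.70 for XYL1. The XYL1 call held in 10 of 16 alternative settings, and the other 5 held in all 16. For the first 5 the responses also had opposite signs, down in wild type and up in uri. These genes were chosen with the values known, so the differences and their calls are a description.

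The same test singled out listed genes around them. It gave −1.62 for BGAL3 and −0.80 for BGAL8, and 1.33 for ASD1, 0.84 for AGAL1, −1.05 for AXY8 and −0.82 for AT5G20950. Xyloglucan synthesis genes gave −1.45 for XLT2, −1.24 for MUR3, −1.03 for XXT5 and −0.68 for XXT2. Sugar return genes gave 3.17 for UGE3, 2.63 for UGE1, 0.88 for the xylulose kinase gene XK2 and −0.96 for USP, a UDP-sugar pyrophosphorylase gene. Carbon-starvation genes gave 5.80 for SEN1, 5.73 for DIN11 and 3.77 for DIN3. The DIN11 value rests on levels below the lower quartile in 3 groups, so its size is uncertain.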

How the results depend on the processing

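Values of the 8 genes under 17 alternative settings, 8 of which left out 1 array each, kept their side of the threshold in 619 of 667 cases, lost the call in 36 and gained it in 12. No called value changed sign, and 8 values that passed in neither did. The listed pathway genes and list counts were recomputed under the same settings, a choice made after seeing the data. Leaving out 1 array gave 435 to 1729 probe sets and 2 to 5 of the 8 genes for iron in wild type, 5404 to 7540 and 6 to 7 for iron in uri, 3609 to 6833 and 3 to 6 for genotype under −Fe, 179 to 1379 and 5 to 6 for genotype under +Fe, and 2849 to 4937 and 5 to 6 for the interaction. For genotype under +Fe, the count of 709 probe sets became 1147 with dim probe sets left out, 1112 with limma-trend and 295 from only the 4 arrays compared, and the cause was not tested. BXL3 has no value with dim probe sets left out. A fit that leaves a group with 1 array assumes it to vary like the others. The 2 arrays per group limit the precision.

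Same-numbered arrays deviated together only weakly, with r from −0.223 to 0.155 between groups. The r was 0.139 between the wild-type groups, 0.155 between the uri groups and negative for every other pair of groups. Whether the samples were paired by replicate number cannot be told from these values. With the replicate number as a block, 1164 probe sets and 4 of the 8 genes were called for iron in wild type, BGAL4 being lost, and the other counts of the 8 genes were as without it.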
